A study of Mus musculus with 10 samples.

Results

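Nnt and the enzymes that supply NADPH around it were followed in the livers of 10 female mice, 5 without Scd1 and 5 wild type. The set was defined by gene symbol, as every probe set annotated to Nnt, Me1, Pgd, Tkt, Idh1, Idh2 or G6pdx. Of these 7 symbols 5 had a probe set, 1 each, so the set comprised 5 of the 7417 genes that a probe set named alone. Idh1 and G6pdx matched no probe set and were not analysed here. All 5 probe sets lay above the intensity floor of 351 on all 10 arrays, and all 5 were tested.

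The Scd1-null mice (SCD1 -/-) were of mixed 129 and C57BL/6J descent, whereas their wild-type counterparts (SCD1 +/+) were C57BL/6J. All were 6 weeks old, ate chow and were not fasted, and each Affymetrix mouse array held the liver RNA of 1 mouse. Scd1 encodes stearoyl-CoA desaturase 1, which makes monounsaturated from saturated fatty acids, and the study asked which liver genes differ when it is missing. The sources used here give neither the disrupted part of Scd1 nor the Nnt alleles of each Scd1-null mouse. Scd1-null livers are called null 1 to null 5, and wild-type livers WT 1 to WT 5.

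NADPH is the electron donor for fatty acid and sterol synthesis and for the glutathione and thioredoxin systems. In the cytosol of hepatocytes it comes mainly from the oxidative steps of the pentose phosphate pathway, from malic enzyme and from NADP-linked isocitrate dehydrogenase. In mitochondria, nicotinamide nucleotide transhydrogenase (Nnt) uses the proton gradient to pass hydride from NADH to NADP, beside mitochondrial isocitrate dehydrogenase (Idh2). C57BL/6J mice are known for an internal deletion of several exons in Nnt that leaves them without the working protein, whereas 129 strains carry the intact gene. Mice of mixed descent may carry either allele, so whether the groups differed at Nnt itself is not known here. Each chip lot served a single genotype too, so genotype, background and lot cannot be told apart in any difference below.

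Depth is not defined for arrays, and 5 arrays per group limit the precision. Median deposited intensity lay between 830 and 862 on the Scd1-null arrays and between 788 and 847 on the wild-type arrays. Values below are intensities after quantile normalization, and differences are Scd1-null minus wild type on the log2 scale from limma. A difference was called at an adjusted p under 0.05 over all 7569 tested probe sets. At the brightest Scd1 probe set the means were 419 ± 308 for Scd1-null and 17523 ± 2610 for wild-type liver (SD, n = 5 each). Hepatocyte markers summed to 95743 to 112619 in Scd1-null and 99016 to 114206 in wild-type liver, and 0 of 6 were called. Among them Alb read 28479 on every wild-type array after normalization, which left it little room to differ. Apoa1 spanned 1518 to 11848 in Scd1-null and 1367 to 16361 in wild-type liver. Over all 9 marker lists 0 of 36 tested genes were called by limma, and 5 had an unadjusted p under 0.05. Among all tested probe sets 6.33% were called, and 26.0% had an unadjusted p under 0.05. In whole liver, fewer cells of a type and less RNA per cell cannot be told apart.

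Fluidics runs, derived from hybridisation times, were unequal between the groups. Run 1 held null 1 to null 4, run 2 held null 5 with WT 1 to WT 3, and run 3 held WT 4 and WT 5. A comparison within a run thus rests on null 5 alone. WT 3, in run 2, had an inaccurate cRNA amount by a comment in the array settings.

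Promoter sequence is shown for Me1 and Tkt because their levels ordered the 5 Scd1-null livers alike, as described further on. RefSeq windows of GRCm38.p6, from 250 bases before to 50 after an annotated start, were found for 4 of the 5 genes, and Nnt had no entry. Windows were searched on both strands for TGACNNNGC, the core of the antioxidant response element bound by NRF2, a regulator of NADPH enzymes. Capitals mark a match. Me1 had 2 windows, and the one that holds a match is printed, while the other, chr9:86687228-86687527, holds none. This Me1 window is chr9:86695865-86696164 and the Tkt window chr14:30548881-30549180, read on the minus strand for Me1 and on the plus strand for Tkt.
Me1: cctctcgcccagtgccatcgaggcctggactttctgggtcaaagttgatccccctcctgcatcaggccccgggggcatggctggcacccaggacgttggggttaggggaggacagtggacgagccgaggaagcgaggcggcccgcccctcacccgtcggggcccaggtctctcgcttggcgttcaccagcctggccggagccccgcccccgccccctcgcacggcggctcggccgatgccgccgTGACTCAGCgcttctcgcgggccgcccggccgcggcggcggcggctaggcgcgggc
Tkt: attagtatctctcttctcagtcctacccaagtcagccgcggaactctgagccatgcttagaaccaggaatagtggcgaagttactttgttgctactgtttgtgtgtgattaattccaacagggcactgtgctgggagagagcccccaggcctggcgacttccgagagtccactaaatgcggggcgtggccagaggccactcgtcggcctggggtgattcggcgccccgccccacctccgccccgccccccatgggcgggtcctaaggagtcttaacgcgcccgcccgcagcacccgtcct
The Me1 match begins 6 bases before the annotated start, and its letters TGACTCAGC also hold TGACTCA, the AP-1 element. No match lay in the Tkt window. Of the 6 windows of the 4 genes 2 held the motif, 1 of Me1 and 1 of Pgd, and among all 32851 windows 12.4% did. The Pgd match lies after the annotated start of its window, and the other Pgd window, chr4:149166656-149166955, holds none. A match is a string of letters and was not tested as a binding site.

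Nnt was higher in Scd1-null liver, and it was the only member called. Nnt read 3928, 3013, 3189, 3261 and 3071 on null 1 to null 5. The same probe set read 2626, 2640, 2670, 2295 and 2807 on WT 1 to WT 5. Every Scd1-null liver lay above every wild-type liver, with null 1 the highest of all and WT 4 the lowest. The means were 3292 ± 369 in Scd1-null and 2608 ± 189 in wild-type liver (SD, n = 5 each). Nnt rose by 0.33 on the log2 scale (SE 0.09, 95% interval 0.14 to 0.52, limma adjusted p = 0.0421). That is a 1.26-fold difference (95% interval 1.10 to 1.44). The exact permutation test, two-sided, gave p = 0.00794, the smallest that 5 arrays against 5 can give. Among all tested probe sets 3.57% were called higher, and 8.13% had groups that did not overlap.

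The C57BL/6J livers thus gave a clear Nnt signal, at or above 2295 on each of their arrays. The sources used here do not say whether its probes lie inside or outside the deleted exons. The probe set therefore reads transcript level at unknown exons and not working protein. On the deposited scale, without normalization, the groups did not overlap either: the Scd1-null arrays read 3190 to 4281 and the wild-type arrays 2286 to 2864. That scale is shifted towards Scd1-null as a whole, with a median difference of 0.06 over all tested probe sets, against -0.02 after normalization.

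The call for Nnt was close to its threshold. It was lost without any 1 Scd1-null array (adjusted p from 0.0653 to 0.0785) and without WT 1, WT 2 or WT 3 (0.0817, 0.0735 and 0.0782). It remained without WT 4 (0.0471) or WT 5 (0.0423). Within run 2 Nnt read 3071 on null 5, against 2626, 2640 and 2670 on WT 1 to WT 3, a difference of 0.21 (adjusted p = 0.414). Blocking on the run gave 0.22 (adjusted p = 0.567).

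**Figure D1:**
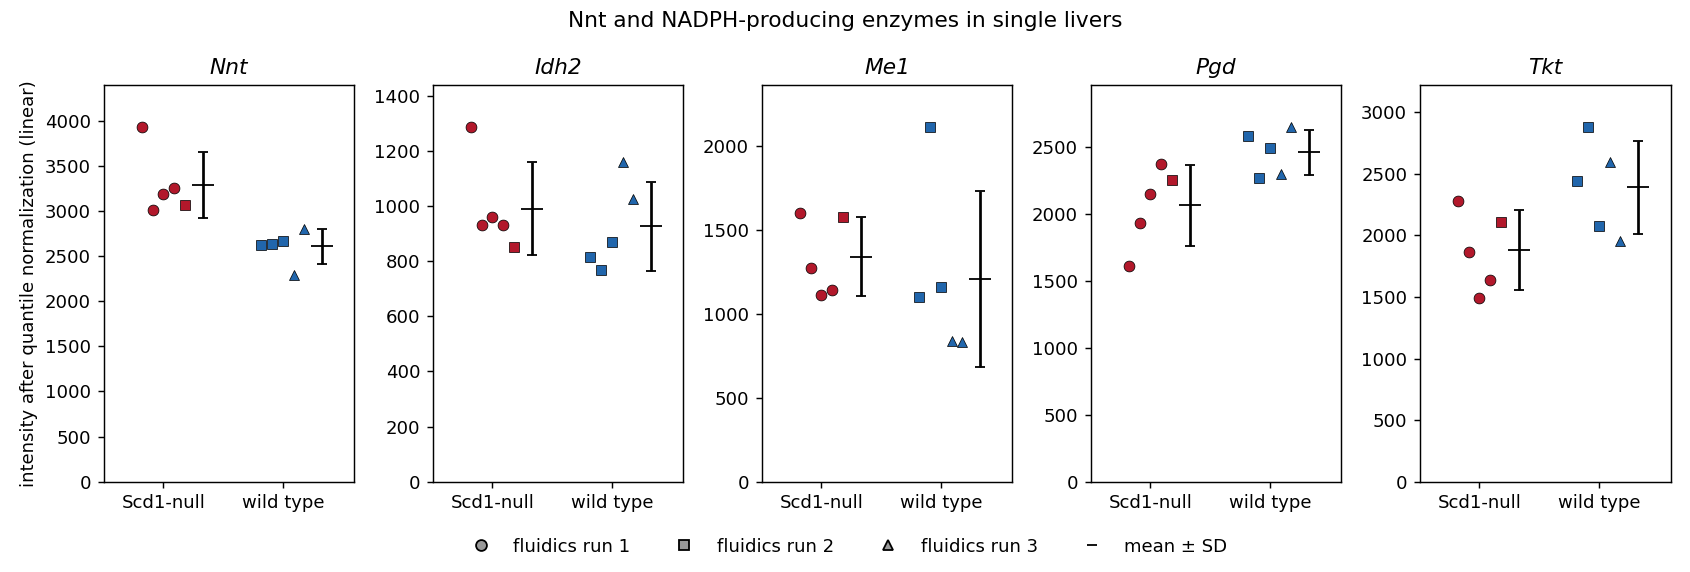
Normalized intensity (y axis, linear, from 0) of the 5 probe sets in single livers, Scd1-null left and wild type right in each panel. Symbols give the fluidics run, and bars the mean ± SD (n = 5). Nnt separates the groups, with 3013 as the lowest Scd1-null and 2807 as the highest wild-type value, and the other 4 genes overlap.

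**Figure D2:**
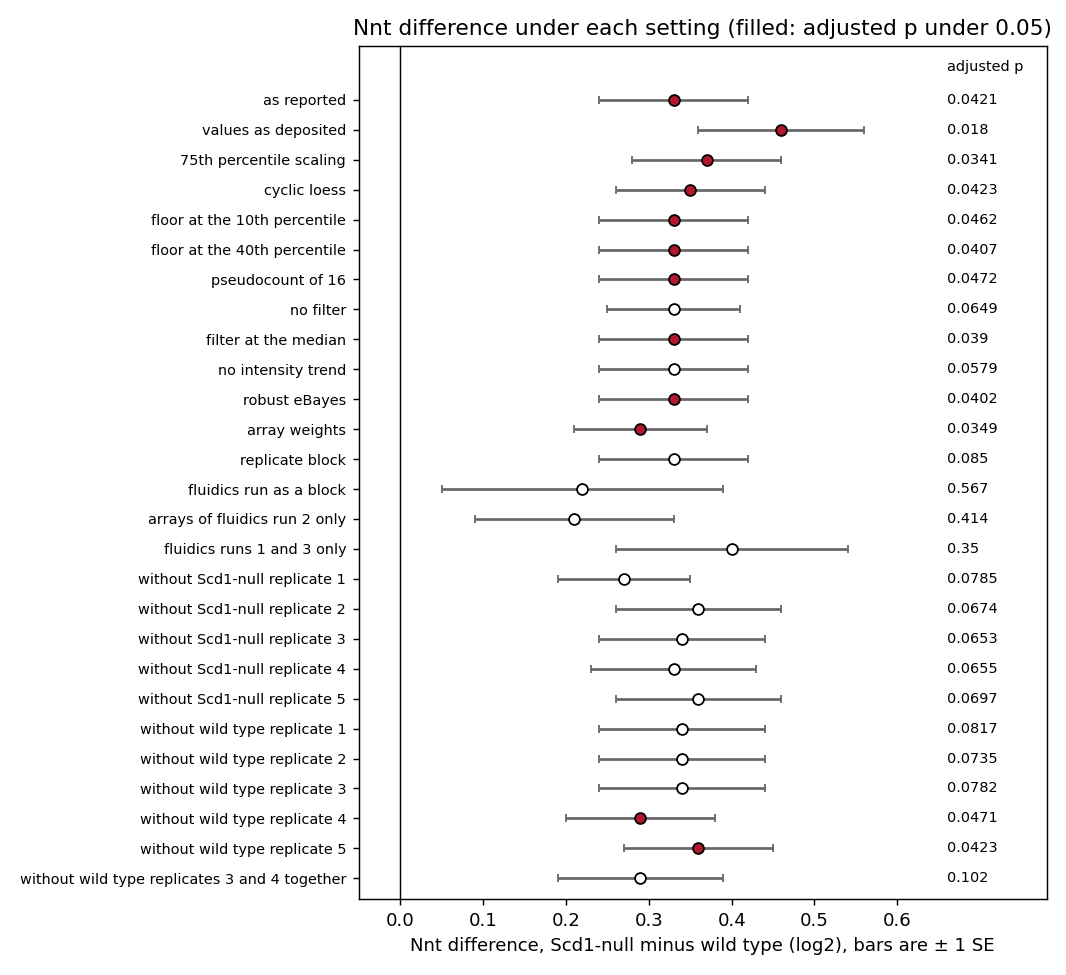
Nnt difference (x axis, log2, Scd1-null minus wild type, ± 1 SE) under each processing setting and with single arrays left out. Filled points have an adjusted p under 0.05. The difference stays between 0.21 and 0.46, and the adjusted p printed at the right crosses 0.05 in many settings.

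Idh2, the other mitochondrial enzyme of the set, makes NADPH from isocitrate. Idh2 read 1286, 930, 959, 932 and 851 on null 1 to null 5. The wild-type values were 814, 767, 869, 1160 and 1025 on WT 1 to WT 5. The groups overlapped, and within each the arrays spread widely, with null 1 highest overall and WT 2 lowest. Idh2 had means of 992 ± 170 in Scd1-null livers and 927 ± 162 in wild-type livers (SD, n = 5 each). The difference was 0.10 (95% interval -0.21 to 0.40, limma adjusted p = 0.689). Without null 1 it was 0.00. The interval leaves room for a change as large as that of Nnt.

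Me1, the cytosolic malic enzyme, turns malate into pyruvate with the release of NADPH and is a classic lipogenic enzyme of liver. Me1 read 1599, 1271, 1113, 1138 and 1576 on null 1 to null 5. In wild type it read 1100, 2108, 1158, 835 and 830 on WT 1 to WT 5. WT 2 was the highest of all 10 livers and WT 5 the lowest, so the wild-type range enclosed the whole Scd1-null range. Me1 had means of 1340 ± 234 in Scd1-null livers and 1206 ± 526 in wild-type livers (SD, n = 5 each).

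The Me1 difference was 0.22 (95% interval -0.26 to 0.71, limma adjusted p = 0.549). WT 2 decided much of its size: without WT 2 the difference was 0.45 (adjusted p = 0.116). Without WT 4 and without WT 5 it was 0.11. The residual SD of Me1, 0.426 on the log2 scale, was larger than that of 96.3% of the tested probe sets, where Nnt, at 0.132, exceeded 22.8%.

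Pgd, 6-phosphogluconate dehydrogenase, carries out the second NADPH-releasing step of the pentose phosphate pathway. Pgd read 1611, 1936, 2148, 2377 and 2251 on null 1 to null 5. The wild-type livers read 2585, 2270, 2496, 2301 and 2647 on WT 1 to WT 5. Of the Scd1-null livers only null 4 lay above the lowest wild-type value, that of WT 2. Pgd had means of 2065 ± 301 in Scd1-null livers and 2460 ± 168 in wild-type livers (SD, n = 5 each), and the difference of -0.26 (95% interval -0.49 to -0.04) was not called (limma adjusted p = 0.136). The exact permutation test gave p = 0.0317.

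Tkt, transketolase, belongs to the non-oxidative part of the same pathway, which recycles sugar phosphates and releases no NADPH itself. Tkt read 2283, 1869, 1496, 1642 and 2109 on null 1 to null 5. The wild-type livers read 2443, 2878, 2081, 2597 and 1955 on WT 1 to WT 5. The groups overlapped: null 1 and null 5 lay within the wild-type range, and null 2, null 3 and null 4 lay below it. Tkt had means of 1880 ± 324 in Scd1-null livers and 2391 ± 377 in wild-type livers (SD, n = 5 each). The difference of -0.35 (95% interval -0.64 to -0.06) was not called (limma adjusted p = 0.123), with an exact permutation p = 0.0635.

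Within run 2, where null 5 is the only Scd1-null array, Pgd was at -0.12 and Tkt at -0.21. In runs 1 and 3 only, where neither run holds both groups, Pgd was at -0.31 and Tkt at -0.33. Macrophage markers also leaned lower in Scd1-null liver: all 5 tested genes of 8 with a probe set had negative differences, with a median of -0.18, and 0 were called. Summed over the 8 genes they lay between 11431 and 13249 in Scd1-null and between 12741 and 16222 in wild-type liver, while Lyz2 and Marco were below the floor on all 10 arrays. The other marker lists had medians from -0.16 (stellate and fibroblast, 1 of 4 tested genes positive) to 0.08 (endothelial, 5 of 7 positive). The part of any of these cell types in the Pgd and Tkt values was not tested.

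Of the 5 members, 1 was called higher and 0 lower, beside 3.57% and 2.76% of all tested probe sets, or 6.33% in either direction. An unadjusted p under 0.05 was reached by 3 of the 5, beside 26.0% of all tested probe sets. The median difference of the 5 was 0.10, beside -0.02 over all tested probe sets, with 3 positive and 2 negative. The 4 genes other than Nnt gave no call in either direction, and their intervals reach from -0.64 to 0.71.

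Me1 and Tkt ordered the 5 Scd1-null livers identically, as null 1, null 5, null 2, null 4 and null 3 from high to low. Of the 10 pairs among the 5 genes this held for that pair alone in Scd1-null liver, and for 0 pairs in wild-type liver. The shared order was noticed after the values were seen and carries no test. Pearson's r of Me1 and Tkt was 0.97 in Scd1-null and 0.62 in wild-type liver, but 0.32 over all 10 arrays. Nnt and Idh2 were nearly as close in Scd1-null liver (0.95) and ran apart in wild type (-0.51). In wild type WT 2 was the highest for both genes and WT 5 the lowest for both. Pgd ran otherwise: null 1, the highest Scd1-null liver for Nnt, Idh2, Me1 and Tkt, was the lowest of all 10 for Pgd.

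**Figure D3:**
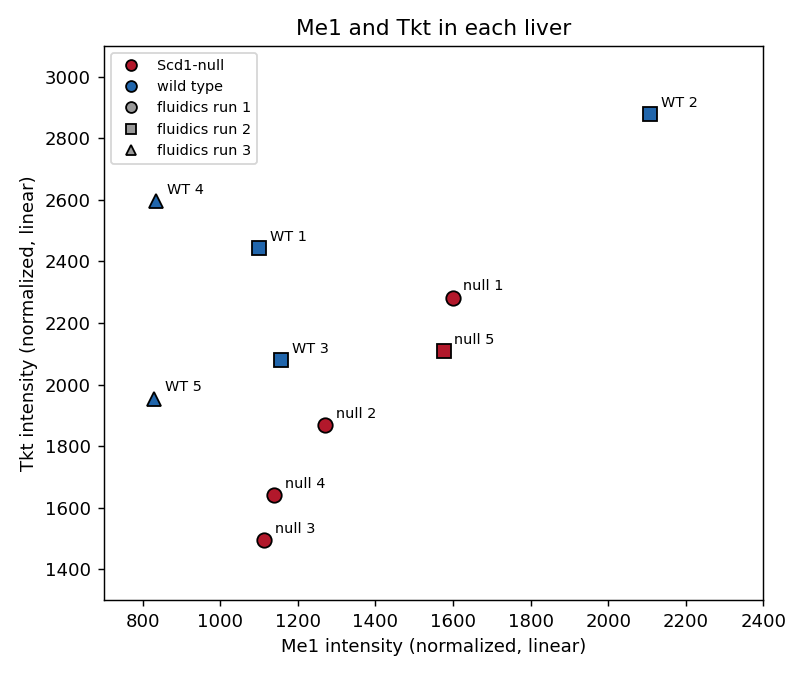
Tkt against Me1 (normalized intensity, linear axes that do not start at 0), 1 point per liver. Colour gives the group and symbol the fluidics run. The Scd1-null points run from null 3 (1113 and 1496) to null 1 (1599 and 2283) for Me1 and Tkt, and WT 2 lies highest for both genes.

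Genes of most similar pattern were taken by Pearson's r over the 10 arrays, among 5922 other genes, as a description. Nnt was most like H2bc1 (r = 0.965), Itm2b (0.913) and Pcyox1 (0.91). After group means were subtracted these were 0.90, 0.80 and 0.72. Itm2b, an inhibitor of amyloid processing, was itself called higher by 0.55 (limma adjusted p = 0.0459) and Pcyox1, prenylcysteine oxidase, by 0.46 (adjusted p = 0.022), and H2bc1 differed by 0.41 (adjusted p = 0.0545). The H2bc1 probe set is of a kind that can bind several members of a gene family.

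For Idh2 the nearest genes were Gfra1 (r = 0.912), Myo10 (0.902) and Mta2 (0.885). For Me1 they were Cfdp1 (0.928), Hpf1 (0.885) and Acsl5 (0.872), the last a long-chain acyl-CoA synthetase. Pgd was nearest to Ghrhr (0.957), Igkv4-70 (0.957) and Lrch4 (0.956), and Tkt to Sec16a (0.932), Gle1 (0.912) and Rdh5 (0.894). These 12 genes had no call between the groups. With 5922 genes ranked over 10 arrays, these r carry no test. The Igkv4-70 probe set, like that of H2bc1, is of a kind that can bind several members of a gene family.

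Genes around Nnt on chromosome 13 were read as well, since mixed descent can bring in a stretch of chromosome around a gene. The strain origin of this stretch was not tested. Of the 10 annotated genes on either side, in RefSeq gene order, 3 had a probe set, and 0 of 3 were called. Hmgcs1, an early enzyme of sterol synthesis and the seventh gene beyond Nnt, read 3280 to 6183 in Scd1-null and 1094 to 5157 in wild-type liver. Its difference was 0.77 (SE 0.34, limma adjusted p = 0.175). Fgf10 differed by -0.02 (adjusted p = 0.955) and the uncharacterised 4833420G17Rik by 0.16 (adjusted p = 0.519), both at dim probe sets.

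Further genes of NADP metabolism were read through 5 lists, of which 46 genes were tested. Of these 8 were higher and 2 lower, beside 3.55% higher and 2.85% lower over all 5923 genes with 1 probe set each. In the rest of the pentose phosphate pathway 0 of 8 tested genes were called by limma, and the median difference was 0.13. An unadjusted p under 0.05 was reached by 2 of the 8, beside 26.0% of all tested probe sets. H6pd, the enzyme that makes NADPH inside the endoplasmic reticulum, was at 0.22 (adjusted p = 0.067), and Rpia, ribose-5-phosphate isomerase, at -0.21 (adjusted p = 0.129). Both were picked after their values were seen. G6pd2, an autosomal relative of G6pdx and no member, was below the floor on all 10 arrays.

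Nadk, the cytosolic kinase that makes NADP from NAD, was lower in Scd1-null liver. Nadk read 2078, 1955, 2393, 2422 and 1910 on null 1 to null 5, against 2933, 2897, 2890, 2413 and 2823 on WT 1 to WT 5. The groups touched only where null 4 lay just above WT 4. Nadk fell by 0.38 (SE 0.09, limma adjusted p = 0.0319). The call was lost on the deposited scale (-0.27, adjusted p = 0.0661), and without null 1, 2 or 5 or WT 1, 2 or 3 (adjusted p up to 0.0864). Blocking on the run gave -0.61 (adjusted p = 0.145).

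In the list that held Nadk, of other dehydrogenases and NAD kinases, 2 of 9 tested genes were higher and 1 lower. Over all genes 3.55% were called higher and 2.85% lower, and the median difference of the list was 0.01. Glud1, glutamate dehydrogenase, which accepts NAD or NADP, read 7657 to 9509 in Scd1-null and 4710 to 7086 in wild-type liver. Glud1 rose by 0.60 (limma adjusted p = 0.00826). Idh3g, a subunit of the NAD-linked isocitrate dehydrogenase, which makes NADH and not NADPH, rose by 0.41 (adjusted p = 0.0223). The Idh3g call was lost without null 1, 2 or 5 or WT 1 or 3 (adjusted p up to 0.0651), and blocking on the run gave 0.59 (adjusted p = 0.165). The other subunits, Idh3a and Idh3b, were at 0.27 (adjusted p = 0.193) and -0.18 (adjusted p = 0.56).

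Of 7 tested lipogenic genes, users of NADPH and their partners, 1 was higher and 1 lower, with a median of -0.16. Hsd17b12, the ketoacyl reductase of fatty acid elongation, rose by 0.55 (limma adjusted p = 0.00376), with 3517 to 3973 in Scd1-null and 2214 to 2913 in wild-type liver. Srebf1, a transcription factor of fatty acid synthesis genes that does not itself use NADPH, fell by 0.81 (adjusted p = 0.00271), and blocking on the run gave -0.49 (adjusted p = 0.201). Fasn, fatty acid synthase, picked after its values were seen, read 4950 to 9443 in Scd1-null and 8282 to 11910 in wild-type liver, a difference of -0.54 (adjusted p = 0.0551). Of 7 tested sterol synthesis genes 3 were higher and 0 lower, with a median of 0.42. Over all genes 3.55% were called higher and 2.85% lower. The 3 were Cyp51 (1.26, limma adjusted p = 0.00255), Fdft1 (0.44, adjusted p = 0.0278) and Nsdhl (0.42, adjusted p = 0.0322). Further Nsdhl probe sets were at 0.43 (adjusted p = 0.0499) and 0.55 (adjusted p = 0.0545).

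Among reductases and antioxidant partners 2 of 15 tested genes were higher and 0 lower, with a median of 0.09. Over all genes 3.55% were called higher and 2.85% lower. Cbr1, a carbonyl reductase that spends NADPH, read 1420 to 1722 in Scd1-null and 1058 to 1271 in wild-type liver and rose by 0.42 (limma adjusted p = 0.0202). Akr1a1, an aldehyde reductase that also uses NADPH, read 6463 to 7783 in Scd1-null and 5604 to 6375 in wild-type liver and rose by 0.31 (adjusted p = 0.0223). The calls of Akr1a1 and Fdft1 were lost without null 2 or 5 or WT 1 or 3, and that of Nsdhl without null 1, 2 or 5 or WT 1, 3 or 5. Cbr1, Glud1, Hsd17b12, Cyp51 and Srebf1 kept theirs without any 1 array. With the run as a block, a fit in which only run 2 holds both groups and null 5 is its only Scd1-null array, 0 of the 46 were called. The blocked differences were 1.56 for Cyp51, 0.65 for Nsdhl, 0.48 for Fdft1 and 0.47 for Akr1a1, larger than without the block. They were 0.53 for Hsd17b12, 0.53 for Glud1 and 0.39 for Cbr1, smaller than without it.

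**Figure D4:**
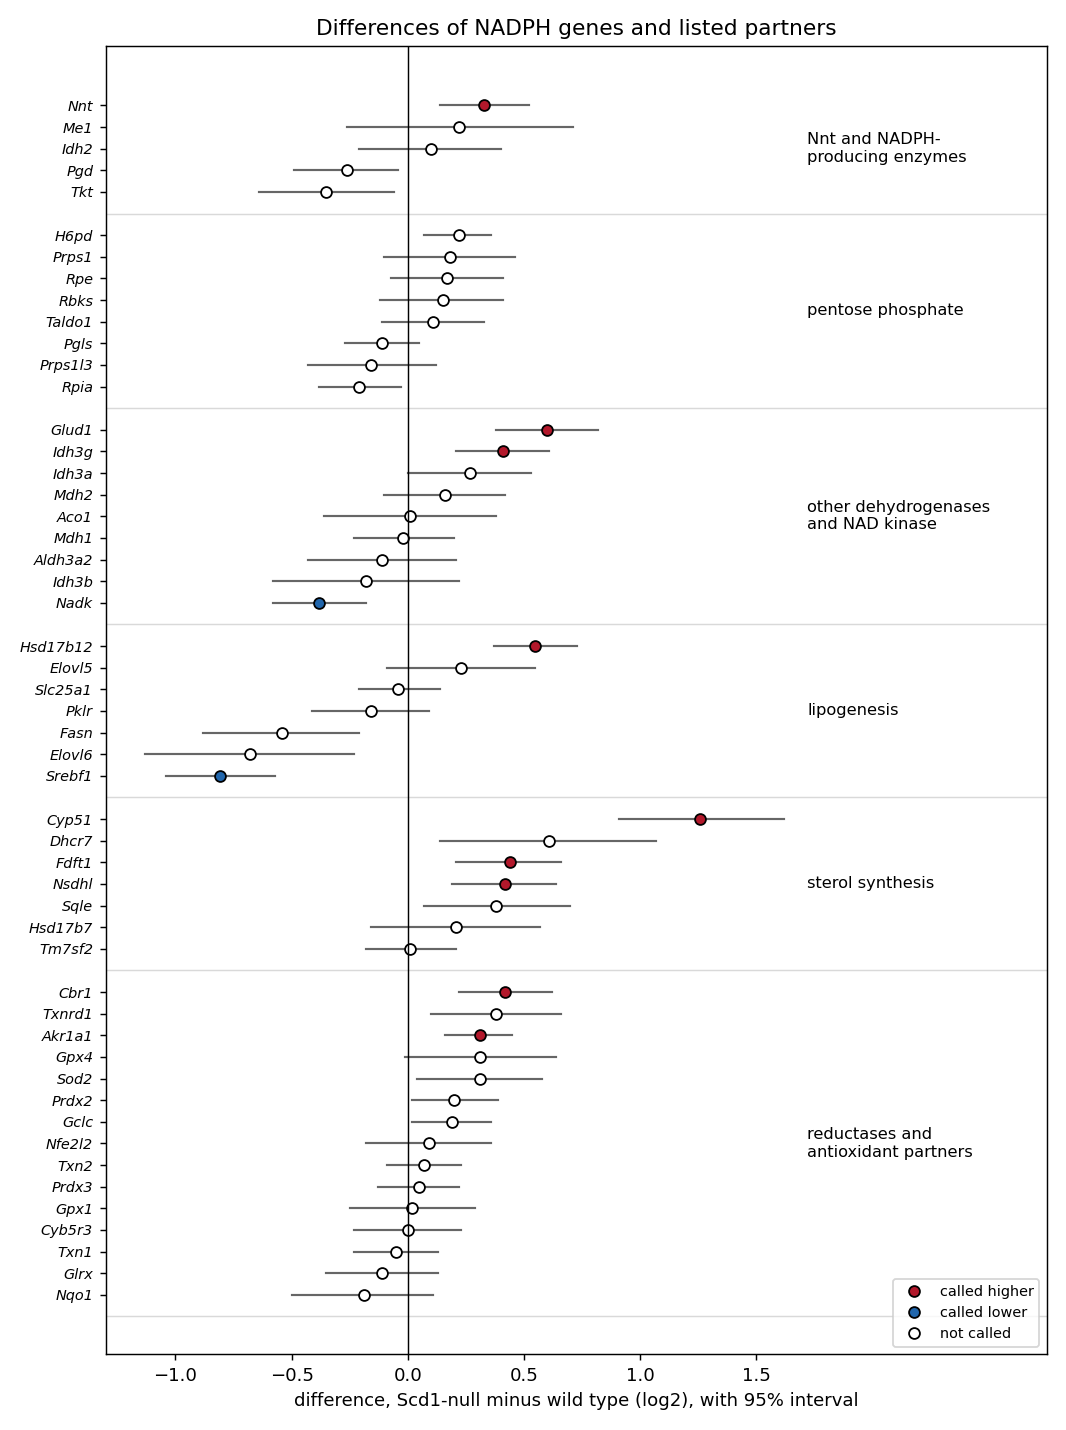
Differences (x axis, log2, Scd1-null minus wild type) with 95% intervals for the 5 members and the 46 tested genes of the 5 lists. Filled points were called higher or lower and open points were not called. Nnt lies at 0.33 and Tkt at -0.35, and Cyp51 (1.26) and Srebf1 (-0.81) mark the ends.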

How the data were processed

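RNA from 10 single livers was read on 1-colour Affymetrix arrays. The deposited table holds intensity values on a linear scale, of which 1.19% lie below 0. The sources used here do not state how the authors summarised probes or scaled arrays. The authors' array settings files gave chip lot, fluidics module and hybridisation time, and a new run was set after each gap of over 60 minutes. They also hold a comment that evaporation made the cRNA amount of WT 3 inaccurate.

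From these values, 66 control probe sets were left out and the other 9977 were quantile normalized, floored at the 25th percentile (351) and taken to log2. Probe sets above the floor on at least 5 arrays (7569) were tested with limma 3.58.1 in R 4.3.3 (lmFit, eBayes with trend), with Benjamini-Hochberg adjustment over all of them and two-sided p-values. The floor compresses differences near it. The exact permutation test used all 252 assignments. The procedure was tested on simulated data with independent noise and no effect of chip lot or fluidics run, so that test does not cover such effects. Tables were made with pandas 2.3.3 under Python 3.11.15.

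Gene symbols came from GEO's platform annotation (8724 probe sets with 1 symbol, 346 with several, 907 with none), of which 8710 matched the RefSeq table of GRCm38.p6 by gene ID. Listed genes were read at their brightest tested probe set. No array coordinates are given. The members, lists and alternatives were chosen with earlier results of these data known. All probe sets of the members were named, called genes of each list, and for each member the 3 genes of highest r. Same-numbered mice share only a number: their deviations from group means correlated between -0.127 and 0.108.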

Additional observations from a re-analysis of the deposited data

Results flagged for a closer look

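Among 30 groups of 5 arrays, for the 5 members and the 10 called genes of the lists, 5 had an array far from the rest. Its gap to the nearest array, as a share of the group's range on the log2 scale, had to pass 0.71. Chance gives about 5% of groups. For Idh2, null 1 read 1286, and the next Scd1-null liver read 959, a share of 0.711 that only just passed. For Fdft1, null 2 read 4732 with 4041 next, and for Nsdhl, null 5 read 3449 with 2790 next, both the highest of the Scd1-null livers. WT 4 stood apart from the other wild-type livers for 2 genes, the highest for Akr1a1 at 6375 with 5677 next, and the lowest for Nadk at 2413 with 2823 next. No cause of these was tested.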

How the results depend on the processing

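Nnt was higher under all 26 alternatives, at 0.21 to 0.46 on the log2 scale, and called under 11 of them. The difference was 0.33 but not called with no filter (limma adjusted p = 0.0649), with no intensity trend (0.0579) and with the replicate block (0.085). It was 0.22 with the fluidics run as a block, 0.21 within run 2, 0.40 in runs 1 and 3 only (an alternative chosen after seeing the data) and 0.29 without wild-type replicates 3 and 4 together, again not called, and the count of members called higher was then 0. Leaving out single arrays gave 0.27 to 0.36 and a count of 0 to 1. Idh2 turned to -0.10 in runs 1 and 3 only (adjusted p = 0.861). Me1, Pgd and Tkt kept their sign and were not called under any of the 26. The size of the Me1 difference varied from 0.09 without wild-type replicates 3 and 4 together to 0.61 in runs 1 and 3 only.

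Over all probe sets 270 were called higher and 209 lower, against 480 and 96 on the deposited scale, 152 and 151 with no filter, 517 and 497 with array weights, 151 and 68 with the replicate block, 7 and 7 with the run as a block, 4 and 3 within run 2, and 10 and 6 in runs 1 and 3. Leaving out single arrays gave 98 to 497 higher and 59 to 453 lower, the most without WT 4. Of the listed genes 8 were called higher and 2 lower, against 4 and 1 with the replicate block, 0 and 0 with the run as a block or within run 2, 0 and 1 in runs 1 and 3, 1 lower on the deposited scale or with no filter, and 5 lower with array weights. Leaving out single arrays gave 4 to 12 higher and 1 to 4 lower. The replicate numbers do not pair the mice, and only replicate 3 correlated best with its own number. Chip lot could not be fitted as a block, since 0 lots held both groups. The causes of these shifts were not tested.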
